A study of Mus musculus with 14 samples.

Results

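The genes described here encode the proteins of the cytosolic ribosome. They were chosen by name alone: gene symbols that begin with Rpl or Rps and a digit, plus Rpsa, Rplp0, Rplp1 and Rplp2, without the Rps6k kinases and without pseudogene names that hold "-ps". The rule found 88 genes with 176 probes among 55482 probes on the array that are not controls. A tested probe was well above background on every array with scanner output in at least 1 group, and 172 of the 176 probes, for 87 genes, met this. Of the 87 genes, 46 encode proteins of the large subunit, 31 encode proteins of the small subunit, and 10 carry the names of paralogs, retroposed copies or a binding partner.

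The series measured RNA on 1-colour Agilent mouse arrays in 14 heart samples, 1 sample per array. All mice were male C57BL/6 operated on at 8 weeks of age. In the infarction groups the left anterior descending coronary artery was tied permanently, and ventricle from the border of the infarct was collected 3 days (MI 3 days, 5 arrays) or 14 days (MI 14 days, 5 arrays) later. The sham group (4 arrays) had the operation without the ligature, and the labels do not say when sham hearts were taken. The design text counts 10 ligated and 5 sham mice, of which 4 sham arrays were analysed here. Whether poly-A RNA or total RNA was labelled is not settled by the labels, which name both. The labels name no transgene or other genetic change.

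The cytosolic ribosome is built from a small subunit, which decodes the mRNA, and a large subunit, which joins amino acids and releases the chain through an exit tunnel. Mammalian ribosomal protein mRNAs begin with a stretch of pyrimidines, the TOP motif, through which the growth regulator mTOR controls their translation, and their proteins are usually made in matched amounts. Adult heart and skeletal muscle also express Rpl3l, a muscle-specific paralog that takes the place of Rpl3 in the large subunit of part of their ribosomes.

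Levels are log2 of the deposited intensity minus the same array's 75th percentile over all probes that are not controls, so a level of 7 lies far up the brightness range of an array. A probe's level also depends on its sequence, so a level was compared between arrays for the same probe, and levels of different probes were not set against each other as amounts of mRNA. A gene stands for its brightest tested probe. Changes are differences of group means on this log2 scale, with standard errors (SE) and two-sided p-values from limma, adjusted by the Benjamini-Hochberg method over all 32257 tested probes. A gene was called changed where the adjusted p was under 0.05.

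At 3 days after infarction most ribosomal protein mRNAs stood slightly higher than in sham hearts. Of 87 genes, 63 rose, 1 fell and 23 did not pass the test. The background is large in this comparison: over all 32257 tested probes, 65.2% were called, 25.5% as higher and 39.7% as lower, so the 72.4% of ribosomal protein genes called higher stand beside 25.5% of all probes. Over 14867 named genes, each taken by its brightest tested probe, 70.2% were called in either direction, with a median change of -0.15. The median change of the ribosomal protein genes was 0.35 on the log2 scale, or 1.27-fold, with quartiles of 0.21 and 0.47, while the median over all tested probes was -0.19. The arrays of the groups did not overlap for 58 genes that were higher and 1 that was lower, beside 22.6% and 34.1% of all probes.

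The rise was spread over both subunits. In the large subunit 37 of 46 genes rose and none fell, with a median change of 0.35. In the small subunit 21 of 31 rose and none fell, with a median change of 0.33. Of 87 genes, 61 were within 0.25 of the median, a wide window beside the median itself, and 2, Rpl3 and Rpl3l, moved by 2-fold or more. In the large subunit 37 of 46 genes were within 0.25 of that subunit's median, and in the small subunit 17 of 31.

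The array medians show the size of this shift against the spread between mice. Over the 77 genes of both subunits, the median level was 7.22, 7.20, 7.23 and 7.37 on the sham arrays. On the MI 3 days arrays it was 7.57, 7.66, 7.60, 7.71 and 7.65. On the MI 14 days arrays it was 7.01, 7.20, 7.28, 7.24 and 7.29. All 5 MI 3 days arrays were above all arrays of the other groups, and the sham and MI 14 days arrays overlapped. The lowest value, MI 14 days replicate 1, came with a large-subunit median of 6.92 and a small-subunit median of 7.26. Group means were 7.25 ± 0.08 (SD, n = 4) for sham, 7.64 ± 0.05 (SD, n = 5) at 3 days and 7.20 ± 0.11 (SD, n = 5) at 14 days.

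**Figure D1:**
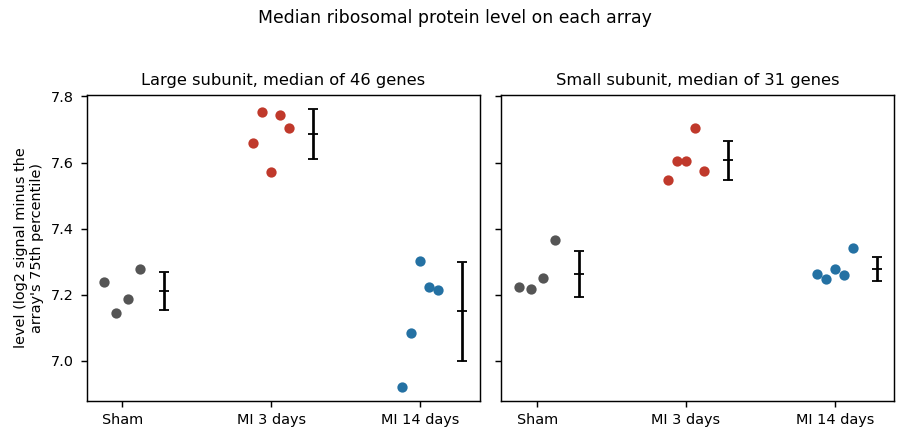
Median level of the 46 large-subunit genes (left) and the 31 small-subunit genes (right) on each array, on the log2 scale relative to the 75th percentile of the array. Each point is 1 array, and the bars are the mean and SD of a group; the 5 MI 3 days arrays lie above all others in both panels, and the lowest point on the left is MI 14 days replicate 1 at 6.92.

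The scale on which arrays are compared moves these values. With the arrays scaled to the median of all probes in place of the 75th percentile, the median of all tested probes went from -0.19 to -0.01 and that of the ribosomal protein genes from 0.35 to 0.53. Relative to the median of all tested probes, the ribosomal protein genes were higher by 0.54 under both scalings. Both subtract a constant from each array, which cannot change this difference. Under quantile normalization, which does not, the difference was 0.64. In the 10 arrays with scanner output and with the slide as a block, 32 of 87 genes were called higher in place of 63, and the median change was 0.34. That fit used fewer arrays, and the share of all tested probes called in it is not given here. Within slide 2 the median difference was 0.43, and within slide 3 it was 0.25, each from 1 MI 3 days array and 1 sham array, so that no test was possible there.

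Cell-type markers moved between the same groups. Over all tested probes 25.5% were called higher and 39.7% lower at 3 days, and 12.8% and 19.8% at 14 days. All 11 cardiomyocyte markers fell at 3 days, and the log2 of their summed signal was 12.60 to 12.93 on the sham arrays, 11.88 to 12.12 at 3 days and 12.66 to 13.09 at 14 days. Of 7 macrophage markers 6 rose and 1 fell at 3 days, with summed levels of 7.40 to 7.81 in sham, 7.82 to 8.14 at 3 days and 7.62 to 7.91 at 14 days. All 6 markers of dividing cells rose at 3 days, and their summed levels were 0.05 to 1.42, 4.61 to 5.02 and 0.98 to 2.27 in the same order. Of 8 fibroblast markers 6 rose and 1 fell at 3 days, and all 8 rose at 14 days, with summed levels of 8.72 to 8.82, 9.77 to 10.23 and 10.16 to 10.68. A sum of signals is led by its brightest probes. The median change at 3 days was -0.98 for cardiomyocyte, 1.68 for macrophage, 4.36 for dividing cell and 1.53 for fibroblast markers. In pieces of tissue, fewer cells of a type and less RNA per cell cannot be told apart, and the part of these shifts in the ribosomal protein values was not tested.

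The other lists are short, and their counts at 3 days stand beside 25.5% of all tested probes called higher and 39.7% lower. Among these lists, 4 of 5 neutrophil markers rose and 1 fell. The counts were 2 higher and 1 lower of 7 lymphocyte markers, 1 and 3 of 6 endothelial markers, and 3 and 3 of 6 smooth muscle and pericyte markers. None of 4 red blood cell markers passed the test in limma. Of 3 skeletal muscle markers 2 rose and 1 fell, and of 5 atrial markers 1 rose and 4 fell.

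Rpl3, a protein of the large subunit near the peptidyl transferase centre, had the largest rise of all 87 genes, each taken by its brightest tested probe. Its level was 5.37, 5.21, 5.29 and 5.43 on the sham arrays. At 3 days it was 6.93, 6.79, 6.91, 6.96 and 6.87, and at 14 days 5.91, 5.81, 6.00, 5.86 and 6.00. The 3 groups did not overlap, with MI 3 days highest and MI 14 days between it and sham. The change from sham was 1.57 ± 0.07 (SE, adjusted p = 1.95e-09), or 2.97-fold, at 3 days and 0.59 ± 0.07 (adjusted p = 9.31e-05), or 1.51-fold, at 14 days.

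Rpl3l, the muscle-specific paralog of Rpl3, was the single gene of the 87 that fell at 3 days. Its level was 5.49, 5.36, 5.54 and 5.59 on the sham arrays. At 3 days it was 2.69, 2.62, 2.52, 2.60 and 3.01, and at 14 days 4.37, 4.33, 3.45, 4.28 and 4.69. The groups again did not overlap, and MI 14 days replicate 3 was the lowest of its group by a wide gap. Rpl3l fell by 2.80 ± 0.19 (SE, adjusted p = 3.73e-08) at 3 days, to 0.143 of the sham level, and by 1.27 ± 0.19 (adjusted p = 0.000368) at 14 days, to 0.415 of the sham level. From 3 to 14 days it rose by 1.54 ± 0.18 (adjusted p = 9.97e-06), or 2.90-fold.

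The difference between the Rpl3 and Rpl3l probes within an array does not depend on how arrays are scaled by a constant. It does not give the ratio of the mRNAs, since probes differ in brightness, but its shift between groups does compare arrays. Against its mean in sham, the difference shifted by 4.38 at 3 days and by 1.86 at 14 days towards Rpl3. In sham it varied between arrays with an SD of 0.06 (n = 4), at 3 days with an SD of 0.21 (n = 5) and at 14 days with an SD of 0.49 (n = 5). At 14 days replicate 3 had a difference of 2.55 and the other arrays 1.31 to 1.58. All 11 cardiomyocyte markers fell at 3 days and 4 of 11 at 14 days, with a median of -0.98 at 3 days, beside the fall of 2.80 in Rpl3l, and whether cardiomyocyte loss accounts for the fall of Rpl3l was not tested.

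**Figure D2:**
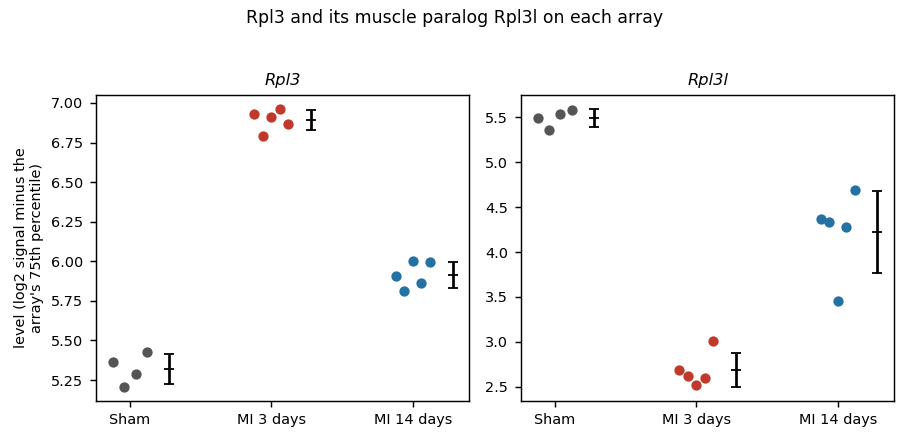
Level of Rpl3 (left) and Rpl3l (right) on each array, on the log2 scale relative to the 75th percentile of the array, with the mean and SD of each group. Each panel has its own axis; Rpl3 is highest at 3 days (6.79 to 6.96) and Rpl3l lowest (2.52 to 3.01), and the 14-day arrays lie between the others in both panels.

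After Rpl3, the genes with the largest rises at 3 days by their brightest tested probes were Rpl22l1, Rpl12, Rps18, Rps26, Rpl39, Rps16 and Rps27a. Rpl22l1 is a paralog of Rpl22 known from blood cell development. Its level was 4.59, 4.37, 4.64 and 4.64 in sham, 5.54, 5.54, 5.32, 5.66 and 5.64 at 3 days, and 4.61, 4.48, 4.63, 4.51 and 4.72 at 14 days. The 3-day arrays stood apart from both other groups, which overlapped. Its rise was 0.98 ± 0.09 (SE, adjusted p = 6.24e-07), or 1.97-fold, and at 14 days its change was 0.03 ± 0.09 (adjusted p = 0.836).

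Rpl12 sits at the base of the stalk of the large subunit, where translation factors dock. Its level was 6.92, 6.95, 6.89 and 7.12 in sham, 7.84, 7.83, 7.78, 7.92 and 7.86 at 3 days, and 7.11, 7.04, 7.37, 7.23 and 7.21 at 14 days. The 3-day values were above all others, while the lowest 14-day arrays overlapped the highest sham array. It rose by 0.88 ± 0.08 (SE, adjusted p = 4.8e-07) at 3 days.

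Rps18 lies in the head of the small subunit. Its level was 6.01, 5.93, 6.03 and 6.03 in sham, 6.76, 6.86, 6.98, 6.89 and 6.79 at 3 days, and 5.99, 6.05, 6.08, 5.96 and 6.17 at 14 days. The 3-day arrays stood apart again, with a rise of 0.86 ± 0.07 (SE, adjusted p = 2.34e-07). Rps26, near the mRNA exit of the small subunit, rose by 0.79 ± 0.08 (adjusted p = 1.16e-06), from 6.77 to 7.03 in sham to 7.57 to 7.72 at 3 days. Rpl39, a small protein of the exit tunnel, rose by 0.74 ± 0.12 (adjusted p = 7.09e-05), Rps16 by 0.70 ± 0.09 (adjusted p = 1.15e-05) and Rps27a, which is made as a fusion with ubiquitin, by 0.69 ± 0.10 (adjusted p = 4.07e-05).

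**Figure D3:**
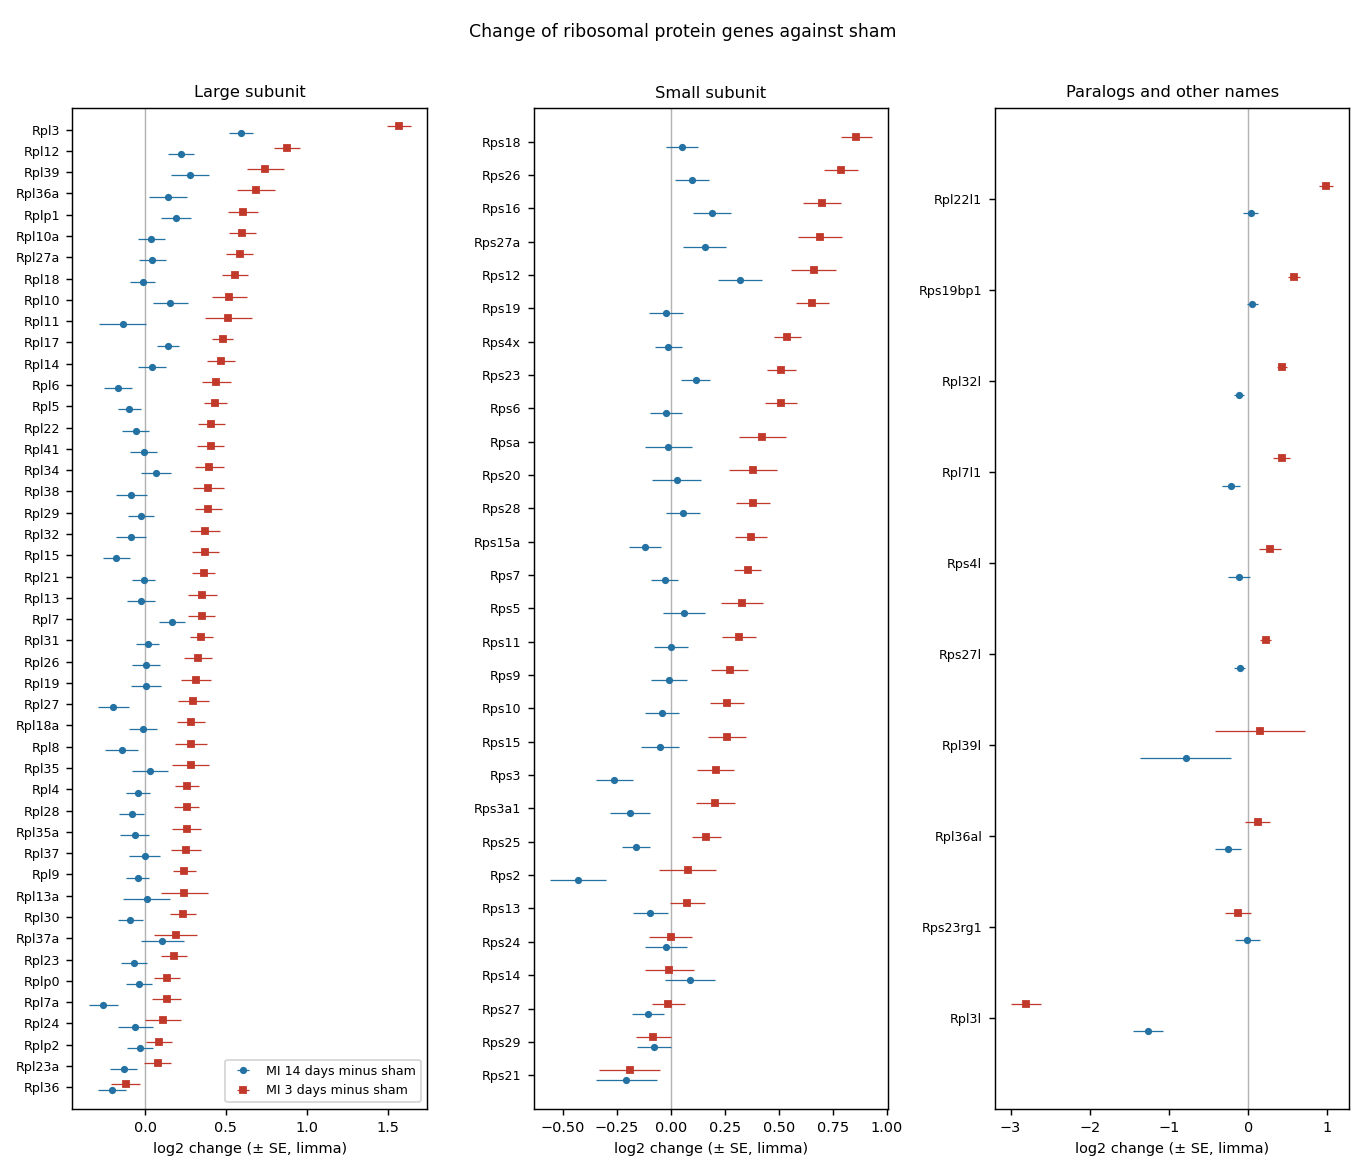
Change of ribosomal protein genes against sham in log2 units, all but a few of the 87 drawn, at 3 days (squares) and 14 days (circles), by subunit, with SE from limma; the horizontal scale differs between panels. At 3 days 78 of the 87 genes were above 0, around a median of 0.35, while the circles scatter around 0 with a median of -0.03, which became 0.13 under quantile normalization, and Rpl3 and Rpl3l lie far from the rest.

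Start sites were searched for the pyrimidine stretch from which TOP mRNAs take their name. Those of the strongest risers with an entry are shown beside 3 genes that did not pass the test at 3 days and Rpl3l, which fell, to let the stretches be compared. Promoter entries from RefSeq (assembly GRCm38.p6) held 79 start sites of 67 of the 88 genes. Each sequence below runs 5′ to 3′ on the gene's strand from 10 bases before the annotated start to 20 bases from it, and the capitals mark its longest run of C and T that begins in the searched window.
Rpl22l1, chr3:28805498-28805527, plus strand: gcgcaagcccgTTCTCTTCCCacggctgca
Rpl12, chr2:32961702-32961731, plus strand: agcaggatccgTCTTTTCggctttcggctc
Rps18, chr17:33955646-33955675, minus strand: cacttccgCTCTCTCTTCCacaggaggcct
Rps26, chr10:128626487-128626516, minus strand: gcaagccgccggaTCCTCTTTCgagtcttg
Rpl39, chrX:37085203-37085232, minus strand: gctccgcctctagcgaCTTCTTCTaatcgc
Rps16, chr7:28350679-28350708, plus strand: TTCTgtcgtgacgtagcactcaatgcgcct
Rps27 (not called at 3 days), chr3:90213629-90213658, minus strand: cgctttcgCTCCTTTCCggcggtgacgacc
Rplp2 (not called at 3 days), chr7:141447641-141447670, plus strand: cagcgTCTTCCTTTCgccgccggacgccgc
Rps2 (not called at 3 days), chr17:24720053-24720082, plus strand: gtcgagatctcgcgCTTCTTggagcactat
Rpl3l (fell at 3 days), chr17:24727816-24727845, plus strand: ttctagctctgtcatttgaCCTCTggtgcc

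In the window from 10 bases before to 15 bases after the start, a run of 8 or more pyrimidines on the gene's strand was present at 25 of 79 ribosomal protein starts (31.6%), beside 9.49% of all 32851 starts in the table, and the median longest run was 5 bases beside 4. Most of these starts therefore had no such run, and the longest run of Rps16 was 4 bases. The letters CTTTC stood on the gene's strand at 20.3% of ribosomal protein starts and 3.1% of all starts, and on the other strand at 2.53% and 3.0%. The letters CTTCC stood on the gene's strand at 17.7% and 5.41%, and on the other strand at 10.1% and 6.01%. CTTTC and CTTCC can overlap in a longer run. Such a run stood at 19 of 57 starts (33.3%) of genes that rose at 3 days, at 6 of 19 starts (31.6%) of genes that were not called, and at 0 of 2 Rpl3l starts. An annotated start can differ from the start used in the heart, so these letters describe the annotation.

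Of the 3 stalk proteins, each taken by its brightest tested probe, 1 passed the test at 3 days. Rplp1, an acidic protein of the stalk that recruits elongation factors, had levels of 7.30, 7.23, 7.25 and 7.53 in sham and 7.78, 7.97, 8.07, 7.90 and 7.96 at 3 days. These groups did not overlap, and Rplp1 rose by 0.61 ± 0.09 (SE, adjusted p = 5.41e-05). Its partners were not called: Rplp2 differed from sham by 0.08 ± 0.08 (adjusted p = 0.381) and Rplp0, which anchors both, by 0.13 ± 0.08 (adjusted p = 0.161). Both passed the test as higher under median scaling, by 0.27 (Rplp2, adjusted p = 0.0155) and 0.31 (Rplp0, adjusted p = 0.00553), and under quantile normalization, by 0.36 (adjusted p = 0.000917) and 0.63 (adjusted p = 2.73e-06). The differences between these 3 genes were not tested. Rpsa, also known as the laminin receptor, rose by 0.42 ± 0.11 (adjusted p = 0.00401).

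Other genes that did not pass the test at 3 days included Rps27 and Rps24 of the small subunit, with changes of -0.01 ± 0.08 (SE) and -0.00 ± 0.10. Their levels overlapped between sham and MI 3 days, at 7.53 to 7.72 against 7.55 to 7.71 for Rps27 and 8.04 to 8.28 against 8.12 to 8.22 for Rps24. Both sign and call changed with the scaling: under quantile normalization they were called higher, by 0.24 (Rps27, adjusted p = 0.0143) and 0.25 (Rps24, adjusted p = 0.0324). The genes that were not called also included Rpl13a, Rpl23, Rpl23a, Rpl24, Rpl36, Rpl36al, Rpl37a, Rpl39l, Rpl7a, Rps13, Rps14, Rps2, Rps21, Rps23rg1, Rps29, Rps3, Rps3a1 and Rps4l. For Rpl13a, Rpl23, Rpl23a and Rpl7a the tested probes did not all have the same call. Their changes were 0.13 to 0.38 for Rpl23, 0.08 to 0.30 for Rpl23a and 0.00 to 0.42 for Rpl7a, and those of Rpl13a are given below.

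Paralogs and their standard counterparts were compared side by side. At 3 days 25.5% of all tested probes were called higher and 39.7% lower. Of 7 tested paralogs 3 rose (Rpl22l1, Rpl7l1 and Rps27l), 1 fell (Rpl3l) and 3 were not called, and of the 8 counterparts 7 rose and Rps27 was not called. Rpl22 rose by 0.41 ± 0.08 (SE, adjusted p = 0.000712), beside 0.98 for Rpl22l1. Rpl7 rose by 0.35 ± 0.08 (adjusted p = 0.0019), beside 0.42 ± 0.11 (adjusted p = 0.00383) for Rpl7l1. Rpl36a on the X chromosome rose by 0.69 ± 0.12 (adjusted p = 0.000137), while its autosomal copy Rpl36al changed by 0.12 ± 0.16 (adjusted p = 0.526). For Rpl36al, MI 3 days replicate 1 was at 4.64, below all sham arrays at 5.09 to 5.33. The other 3-day arrays, at 5.34 to 5.58, were above all sham arrays.

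Rps27l, a paralog of Rps27 known as a target of p53, rose by 0.22 ± 0.07 (SE, adjusted p = 0.0157). Rps4x and Rpl10, both on the X chromosome, rose by 0.54 ± 0.06 (adjusted p = 4.16e-06) and 0.52 ± 0.11 (adjusted p = 0.000756). Rps4l changed by 0.27 ± 0.14 (adjusted p = 0.0907). Rpl39l, known from the testis, lay close to background, and its change of 0.14 ± 0.57 (adjusted p = 0.834) leaves its direction unresolved. Both probes of Rpl10l, likewise known from the testis, were well above background on none of the 10 arrays with scanner output and were not tested. The differences between a paralog and its counterpart were not tested.

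The name rule also takes in Rps19bp1, which is not part of the ribosome but binds Rps19 in the nucleolus, and it rose by 0.58 ± 0.07 (SE, adjusted p = 7.82e-06). Rps19 itself, mutated in Diamond-Blackfan anaemia, rose by 0.65 ± 0.08 (adjusted p = 5.57e-06). Rpl11, which forms a complex with 5S ribosomal RNA and can bind the p53 regulator Mdm2, rose by 0.51 ± 0.14 (adjusted p = 0.00628).

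Ribosomal proteins whose genes carry other names were not members. Of 3 tested, 2 rose and 1 fell at 3 days, beside 25.5% and 39.7% of all probes. Fau, the precursor of a small-subunit protein, rose by 0.31 (adjusted p = 0.00952) and Rack1, a scaffold on the small subunit, by 0.51 (adjusted p = 0.00099).

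At 14 days most ribosomal protein mRNAs lay near the sham level. Of 87 genes 3 were called higher (Rpl3, Rps12 and Rpl12) and 4 lower (Rpl3l, Rps2, Rps3 and Rpl7a), while over all tested probes 32.5% were called, 12.8% as higher and 19.8% as lower. Over the named genes with 1 probe each, 40.1% were called in either direction, with a median change of -0.08. The median change of the ribosomal protein genes was -0.03, beside -0.09 over all tested probes, and 81 of 87 genes were within 0.25 of it. The arrays did not overlap for 2 genes that were higher and 6 that were lower, beside 10.3% and 17.2% of all probes. The sign of this median follows the scaling: it was 0.06, with 9 genes higher and 2 lower, when the 75th percentile was taken over tested probes, and 0.13, with 15 higher and 1 lower, under quantile normalization. Of all 32257 tested probes, 5152 were higher and 4555 lower under the former scaling, and 4579 and 5225 under the latter.

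The 7 calls at 14 days were not equally firm. Rpl3 and Rpl3l kept their direction and call in all 24 alternatives in which they were fitted. Rps2, which lies near the mRNA entry of the small subunit, had levels of 7.59, 7.54, 7.75 and 7.87 in sham and 7.32, 7.32, 6.79, 7.27 and 7.57 at 14 days. The groups overlapped through replicate 5, and replicate 3 was the lowest. Rps2 fell by 0.43 ± 0.13 (SE, adjusted p = 0.0213), and its other tested probe also fell by 0.43 and had the same call. The call of Rps2 was lost in 7 alternatives, among them those without sham replicate 3 or without sham replicate 4.

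Rps3, at the mRNA entry of the small subunit, had levels of 6.16, 6.30, 6.02 and 6.20 in sham and 5.86, 5.86, 5.94, 5.98 and 5.88 at 14 days, with no overlap. It fell by 0.26 ± 0.09 (SE, adjusted p = 0.033), but the dimmer of its 2 tested probes differed by 0.08 in the other direction and was not called. Rpl7a of the large subunit had levels of 7.19, 7.09, 7.04 and 7.18 in sham and 6.95, 6.79, 6.79, 6.82 and 6.96 at 14 days, also with no overlap, and fell by 0.26 ± 0.09 (adjusted p = 0.0405). The 4 tested Rpl7a probes changed by -0.32 to -0.16 at 14 days and did not all have the same call. The Rps3 and Rpl7a calls were lost in 12 and 14 alternatives. Each lost it when sham replicate 1, 2 or 4 or MI 14 days replicate 2 was left out. Rps3 also lost it without MI 14 days replicate 1 or 5, and Rpl7a without MI 14 days replicate 3 or 4.

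Rps12, in the beak of the small subunit, had levels of 8.00, 7.95, 7.82 and 8.19 in sham, 8.46, 8.76, 8.72, 8.69 and 8.64 at 3 days, and 8.18, 8.15, 8.54, 8.35 and 8.36 at 14 days. Its lowest 14-day arrays overlapped the highest sham array. Rps12 rose by 0.66 ± 0.10 (SE, adjusted p = 6.94e-05) at 3 days and by 0.32 ± 0.10 (adjusted p = 0.0291) at 14 days, and its second probe by 1.11 and 0.55. Its 14-day call was lost in 10 alternatives, among them those without sham replicate 1, 2 or 3 or without MI 14 days replicate 3 or 4. The 14-day rise of Rpl12, 0.22 ± 0.08 (adjusted p = 0.0487), lost its call in 18 alternatives, among them those without any 1 of the 5 MI 3 days arrays, sham replicates 1 to 3 or MI 14 days replicates 3 to 5. The second Rpl12 probe differed by 0.11 at 14 days and was not called (adjusted p = 0.434).

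From 3 to 14 days 69 of 87 genes fell, 1 rose (Rpl3l) and 17 did not pass the test. Over all tested probes 55.6% were called in this comparison, 22.9% as lower and 32.7% as higher. Over the named genes with 1 probe each, 60.5% were called in either direction, with a median change of 0.08. The median change of the ribosomal protein genes was -0.37, beside 0.13 over all tested probes. The arrays did not overlap for 60 genes that were lower and 1 that was higher, beside 18.8% and 21.2% of all probes. With slide as a block, on the 10 arrays that have scanner output, 34 genes were called lower, and the share of all tested probes in that fit is not given here. The comparison shares its MI 3 days arrays with the first one, so a gene that was high on them by chance would appear in both.

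The largest falls from 3 to 14 days were those of Rpl3, by 0.98 ± 0.07 (SE, adjusted p = 1.28e-07), Rpl22l1, by 0.95 ± 0.09 (adjusted p = 1.12e-06), and Rps18, by 0.81 ± 0.07 (adjusted p = 5.56e-07). Rps26 fell by 0.69 ± 0.08 (adjusted p = 4.95e-06), Rps19 by 0.68 ± 0.07 (adjusted p = 4.78e-06), and Rpl12 by 0.66 ± 0.08 (adjusted p = 8.68e-06). Rpl11 fell by 0.65 ± 0.14 (adjusted p = 0.00106) and Rpl7l1 by 0.64 ± 0.10 (adjusted p = 0.000143). For Rpl11 MI 14 days replicate 1, at 6.86, was well below the other 14-day arrays, at 7.54 to 7.76, which themselves lay below all 3-day arrays, at 8.02 to 8.20.

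Many ribosomal protein genes have processed pseudogenes and near-identical copies, so a probe may also bind other transcripts, and genes with several probes allow a check. Of 49 genes with 2 or more tested probes, 36 had the same call on every probe at 3 days, and 2 had probes called in both directions. The bright probe of Rpl22 rose by 0.41, while a dim probe fell by 0.46 (adjusted p = 0.000104). Of 4 Rpl6 probes 3 rose, the brightest by 0.44, while the dimmest fell by 0.75 (adjusted p = 0.00295). The values of Rpl22 and Rpl6 are therefore uncertain as values of the whole gene.

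Rps24, whose 3 probes are assigned to 3 different RefSeq transcripts, differed by probe as well. Its brightest probe did not pass the test, with a change of -0.00, the next fell by 0.42 ± 0.09 (SE, adjusted p = 0.000622), and the dimmest differed by 0.14 ± 0.11 (adjusted p = 0.269). On the second probe the level was 8.09, 7.98, 8.01 and 8.25 in sham, 7.65, 7.72, 7.51, 7.74 and 7.67 at 3 days, and 8.00, 8.15, 8.09, 8.28 and 8.25 at 14 days. All 3-day arrays were below all others there. From 3 to 14 days this probe rose by 0.49 (adjusted p = 0.000162) and the dimmest fell by 0.39 (adjusted p = 0.00681). The difference between the probes was not tested.

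The size of a change depended on the probe taken. In 30 of the 49 genes the dimmest tested probe had a higher log2 change at 3 days than the brightest. In 11 genes the probes of a gene differed by 0.5 or more. The Rps27a probes rose by 0.50 to 1.86 and the Rpsa probes by 0.42 to 1.27. Rpl13a is given here after its values were seen. A pair of dim Rpl13a probes rose by 1.27 (adjusted p = 4.36e-08) and 1.32 (adjusted p = 2.05e-07), while the bright probe differed by 0.24 ± 0.15 (adjusted p = 0.158). On the bright Rpl13a probe MI 3 days replicate 1, at 6.61, was below all sham arrays, and the other 3-day arrays, at 7.30 to 7.46, were above them. Counted over all 172 tested probes, 123 rose and 4 fell at 3 days, with a median change of 0.37.

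**Figure D4:**
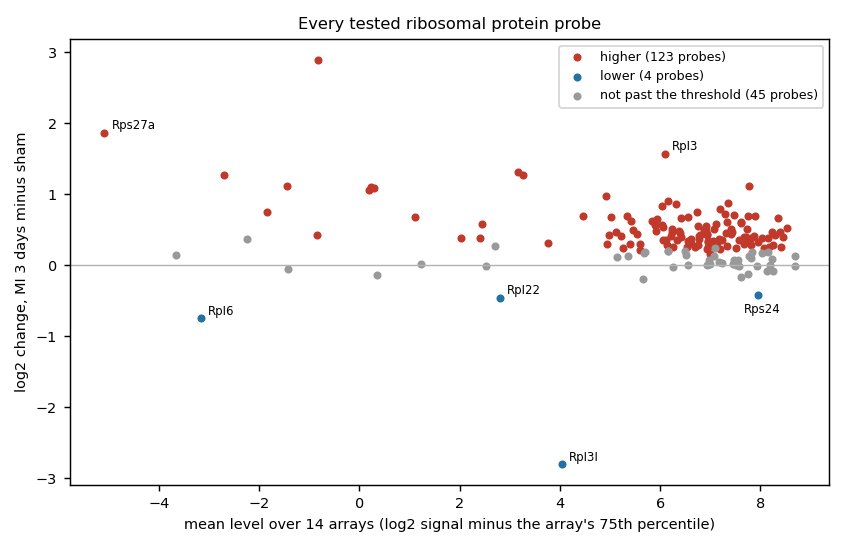
Change at 3 days against sham of each of the 172 tested probes (log2 units) over the probe's mean level on the 14 arrays, which reflects probe brightness as well as mRNA amount. Red probes were called higher (123), blue lower (4) and grey neither (45); the named points are Rpl3, Rpl3l, and probes of Rps27a, Rpl22, Rpl6 and Rps24 that departed from the other probes of their gene.

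Genes that build ribosomes were set beside the ribosomal proteins. Of 54 tested genes of ribosome biogenesis and ribosomal RNA transcription, 33 rose and 5 fell at 3 days, beside 25.5% of all tested probes called higher and 39.7% lower. Their median change was 0.41, beside -0.19 over all tested probes. The largest rise was that of Ddx21, a nucleolar RNA helicase, by 1.41 ± 0.13 (SE, adjusted p = 4.02e-07), and the largest fall that of Riok2, a kinase of late small-subunit assembly, by 0.48 ± 0.08 (adjusted p = 0.0001). At 14 days 1 of the 54 rose (Tsr1, a factor of small-subunit assembly, by 0.24, adjusted p = 0.0427) and 11 fell, with a median of -0.15, beside 12.8% and 19.8% of all probes and a median of -0.09. The largest fall at 14 days was that of Rrn3, which recruits RNA polymerase I, by 0.62 ± 0.10 (adjusted p = 0.000455). From 3 to 14 days 40 fell and none rose, beside 22.9% and 32.7% of all probes.

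Ddx21 had levels of 0.95, 0.90, 0.94 and 0.97 in sham, 2.36, 2.19, 2.73, 2.45 and 2.02 at 3 days, and 0.53, 0.89, 0.56, 0.68 and 0.49 at 14 days. The 3-day arrays stood apart from all others, and the 14-day arrays were all below sham, with a difference that did not pass the test (adjusted p = 0.0817).

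Of 16 other tested genes whose mRNAs carry the TOP motif, 7 rose and 1 fell at 3 days, beside 25.5% and 39.7% of all probes, with a median of 0.18. The poly-A binding protein gene Pabpc1 rose by 1.63 ± 0.13 (SE, adjusted p = 1.5e-07), and Tpt1, which encodes the translationally controlled tumour protein, fell by 0.25 ± 0.08 (adjusted p = 0.0178). At 14 days 2 rose and 3 fell, shares close to the 12.8% and 19.8% of all probes. The largest changes were those of the elongation factor gene Eef1a1, which rose by 0.80 ± 0.12 (adjusted p = 0.000363), and Hnrnpa1, which fell by 0.38 ± 0.09 (adjusted p = 0.00658). From 3 to 14 days 1 rose and 9 fell, beside 32.7% and 22.9% of all probes.

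Of 18 tested genes that control ribosome synthesis, 4 rose and 10 fell at 3 days, beside 25.5% and 39.7% of all probes, so the share that rose was near the background. The transcription factor gene Myc had levels of -1.98, -2.10, -2.15 and -2.36 in sham and 0.78, 0.81, 1.10, 0.80 and 0.62 at 3 days, and it rose by 2.97 ± 0.14 (SE, adjusted p = 2.05e-09). At 14 days Myc levels were between -1.47 and -0.80, above all sham arrays and below all 3-day arrays, with a rise of 0.98 ± 0.14 (adjusted p = 0.000261). Its relative Mycn fell by 1.37 ± 0.25 (adjusted p = 0.000251) at 3 days, and at 14 days the largest fall was that of their partner Max, by 0.63 ± 0.10 (adjusted p = 0.00058). Altogether 2 rose and 6 fell at 14 days, beside 12.8% and 19.8% of all probes, and 3 rose and 5 fell from 3 to 14 days, beside 32.7% and 22.9%.

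**Figure D5:**
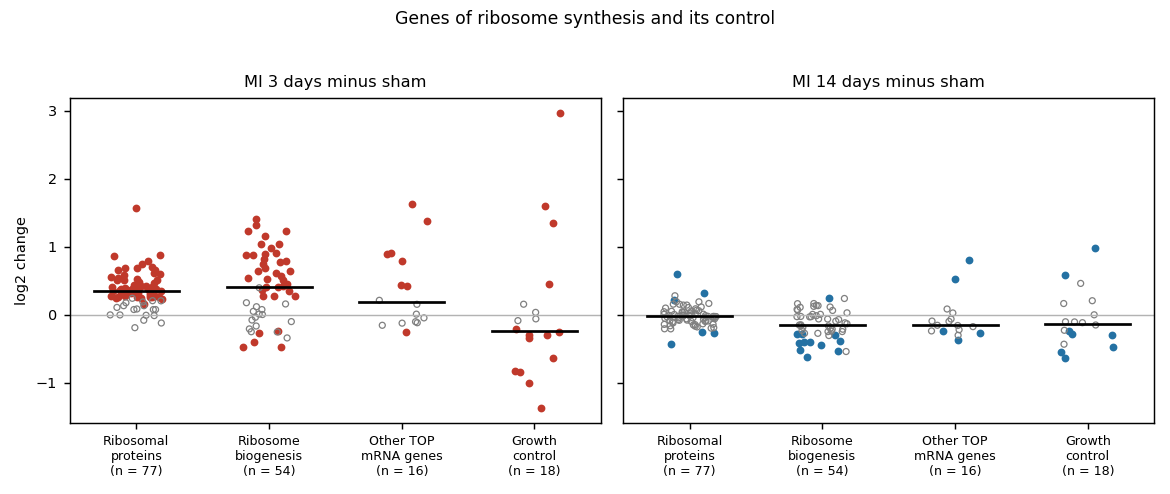
Change against sham at 3 days (left) and 14 days (right), in log2 units, of the 77 ribosomal protein genes of both subunits, 54 ribosome biogenesis genes, 16 other TOP mRNA genes and 18 growth control genes. Filled points passed the test, open points did not, and lines are medians; at 3 days the first 2 lists have medians of 0.35 and 0.41, and the highest point is Myc at 2.97.

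Scanner output showed 170 of the 176 probes well above background on all 10 arrays that had it and 0 saturated. On those arrays neither limit bounded the changes of these 170 probes. The probes that fell short included those of Rpl39l and Rpl10l. In the MI 3 days group 2 of 5 arrays had scanner output, so background and saturation were not checked on its other arrays.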

How the data were processed

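RNA of 14 samples was measured on 1 array each. The deposited value table holds linear Cy3 intensities. On the 10 arrays with scanner output, made with Agilent Feature Extraction 10.7.3.1 (annotation build mm9) per the file headers, these intensities equal the authors' processed signal for every probe with a single spot (tolerance 1e-05 of the value). The 75th percentile of intensity was 188.6 to 443.0, and 54.8% to 66.1% of probes were well above background. The scanner output used here has no gene name column, so the name rule was applied to RefSeq symbols (GRCm38.p6) matched by accession; 27144 probes had a symbol. From the deposited intensities, log2 minus each array's 75th percentile was computed and fitted with limma 3.58.1 (R 4.3.3) over all 14 samples, with group as the only term and no block. The mice are the replicates, and their number limits the precision. A probe entered the test where, in 1 group or more, all arrays with scanner output had it well above background. The script was tested on simulated data. Named genes are the 8 largest rises and falls per comparison, stalk genes, Rpsa, paralogs and counterparts, genes with probes called in both directions, and the extreme genes of each list; others were chosen after their values were seen. The members and lists were chosen with earlier results of these data known. Alternatives were other scalings, filters, arrays, slide or replicate blocks, and normexp (offset 50), which was run on the median spot signal and chosen after seeing the data because the mean signal was not among the columns used here. Summaries used Python 3.11.15 with pandas 2.3.3. Values of some genes are not reported here by name.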

Additional observations from a re-analysis of the deposited data

Results flagged for a closer look

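In 99 groups of arrays, those of the named genes and of the median over both subunits, 5 had 1 array far from the others by Dixon's test. By chance the test flags about 1 in 20 groups that are independent. These groups share the same 14 arrays and are not independent, and the cause of the flags was not tested. Rplp2 was at 8.40 on sham replicate 4 and at 8.13 to 8.14 on the other sham arrays. Rpl36al was at 4.64 on MI 3 days replicate 1 and at 5.34 to 5.58 on the others. On MI 14 days replicate 1, Rpl11 was at 6.86 (others 7.54 to 7.76), Rpl6 at 6.87 (others 7.20 to 7.24) and Rps27 at 7.32 (others 7.53 to 7.59).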

How the results depend on the processing

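At 3 days the count of higher genes was 46 to 80 in the other fits of 1 probe per gene and 32 with the slide as a block, and the median was 0.53 under median scaling, 0.54 under quantile normalization, and 0.43 and 0.25 within slides 2 and 3. Lower genes were 2 with no filter. Leaving out 1 array gave 58 to 65 higher, 1 lower and a median of 0.31 to 0.37. Over all 172 probes, 123 were higher and 4 lower at 3 days, 6 and 10 at 14 days, and 3 and 140 from 3 to 14 days. At 14 days the counts were 9 higher and 2 lower with the percentile over tested probes (median 0.059), 15 and 1 under quantile normalization (median 0.13), and 1 and 1 with no filter or the slide block. They were 1 lower on scanner arrays alone, and 1 higher with normexp or with the 2 groups fitted alone. For the percentile over tested probes and for quantile normalization, the counts over all tested probes are given above. The median was -0.13 within slide 1. Leaving out 1 array gave 1 to 4 higher (1 without sham replicate 1, 2 or 3 or MI 14 days replicate 3 or 4), 1 to 5 lower (1 without sham replicate 4, 2 without sham replicate 1 or 2 or MI 14 days replicate 2) and a median of -0.05 to -0.01. From 3 to 14 days the median was -0.57 under median scaling and -0.31 within slide 3, and 34 genes were lower with the slide block; leaving out 1 array gave 65 to 71 lower, 1 higher and a median of -0.39 to -0.35. Rps24 (0.25) and Rps27 (0.24) turned from below 0 to called higher at 3 days under quantile normalization. The cause was not tested, beyond the slide block and scanner fits using fewer arrays.

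With the replicate block, 61 genes were higher at 3 days, 1 higher and 2 lower at 14 days, and 68 lower from 3 to 14 days. Deviations from the group means correlated at -0.135 to 0.224 between same-numbered arrays. Differently numbered arrays were not set beside them, so these values do not settle whether the numbers pair the samples. The number of arrays limits what small changes can be called.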
